A study of Homo sapiens with 27 samples.

Results

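TXNIP and the ARRDC genes encode the human alpha-arrestins. The mRNA levels of this family were read in U937 cells, a human myeloid leukemia cell line, with and without matrine. The genes were chosen by symbol from a list of 5 (TXNIP, ARRDC1, ARRDC2, ARRDC3 and ARRDC4) and matched through GENCODE release 44 to the Ensembl identifiers of the deposited table. Of the 57905 identifiers in that table, 51996 were matched to a symbol, and 4 of the 5 genes were among them. TXNIP was not matched. The annotation release behind the table is not given in the sources used here, so TXNIP may stand in it under an identifier that the annotation used here does not link to the symbol, and it is not analysed here. The study asked which genes respond to matrine, an alkaloid of Sophora plants, and paid most attention to MYC. RNA-seq covered 3 groups with 3 libraries each: control, a 30 min exposure and a 24 h exposure, both to matrine at 0.8 mg/ml. All were parental U937 cells in the same medium, and the vehicle, as the paper names it, was ddH2O. HL-60 and K562 cells are not analysed here. Both times were set against the same 3 controls, and how long the controls were cultured is not given in the sources used here, so time in culture and 24 h of matrine cannot be told apart. Nothing in the labels says that the 3 libraries of a group came from separate cultures, so the p-values measure the spread among these libraries, which may be technical.

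Arrestins are cytoplasmic adaptor proteins with an arrestin fold. The beta-arrestins bind activated receptors. The alpha-arrestins, which are older in evolution, carry PY motifs in their tails that bind ubiquitin ligases of the NEDD4 family, and thereby bring these ligases to membrane proteins that are to be internalized or degraded. TXNIP differs from its relatives in that it also binds thioredoxin, and it is known to restrain glucose uptake. Its closest relative ARRDC4 shares the control of glucose uptake, and both genes are textbook targets of the glucose-sensing factors MondoA (MLXIP) and ChREBP (MLXIPL), which bind with MLX to pairs of E-boxes in the promoter. ARRDC1 is known for the budding of small vesicles from the plasma membrane together with the ESCRT protein TSG101. ARRDC3 is known for the down-regulation of integrin beta-4 and other surface proteins. ARRDC2 is the least described of the family.

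Sequencing depth was similar in the 9 libraries, with total counts between 17314931 and 21930018, of which the 10 most abundant genes took 4.99% to 5.28%. Replicates differed beyond sampling noise, so all were kept as separate libraries. The label U937 was compared with markers. Of 10 monocytic and myeloid markers, LYZ (292 FPKM in the control), SPI1 (67.6 FPKM), CD4 and CD33 were present, whereas MPO, CD68 and CSF1R lay below 1 FPKM in the control (FPKM: fragments scaled by transcript length and library size). Their summed level was 429 to 436 FPKM in the control, 427 to 450 FPKM after 30 min and 409 to 417 FPKM after 24 h. The 4 T cell markers were at 0 in every library, and the summed level of 6 erythroid markers did not exceed 0.28 FPKM. At 24 h 8 of these 10 markers were tested, and 2 were called higher, MPO and ITGAL, and 0 lower. Of 4 B cell markers 2 were tested and 1 was called higher, CD79A at 2.58 FPKM. Over all genes 14.8% were called higher and 11.5% lower. By adjusted p alone 4 of the 8 monocytic and myeloid markers were higher and 2 lower, against 30.9% and 32.5% of all genes. The lower ones were the abundant LYZ (log2 fold change -0.32) and SPI1 (-0.33). MPO, at 0.313 FPKM in the control, reached the minimum for testing (a mean above 1 FPKM) only through the 24 h group. The summed level of 4 B cell markers was 2.56 to 3.66 FPKM in the control, 2.96 to 3.61 FPKM after 30 min and 3.74 to 4.14 FPKM after 24 h, with the defining marker MS4A1 at 0. The part of these marker changes in the results below was not tested, and in bulk RNA fewer expressing cells and less mRNA per cell cannot be told apart. MYC mRNA, the transcript the study is about, went from 207 FPKM in the control to 54.1 FPKM after 30 min and 43.8 FPKM after 24 h.

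The start regions of the 4 genes were compared only in their counts of a few short motifs. For each gene the 250 bases before a transcription start are printed 5′ to 3′ on the gene's strand, as RefSeq gives them on GRCh38.p14. Capitals mark every match, on either strand, to the E-box CACGTG (a palindrome, the site of MLX partners and of MYC), the CCAAT box CCAAT and the GC box GGGCGG.
ARRDC4, chr15:97960453-97960702, plus strand: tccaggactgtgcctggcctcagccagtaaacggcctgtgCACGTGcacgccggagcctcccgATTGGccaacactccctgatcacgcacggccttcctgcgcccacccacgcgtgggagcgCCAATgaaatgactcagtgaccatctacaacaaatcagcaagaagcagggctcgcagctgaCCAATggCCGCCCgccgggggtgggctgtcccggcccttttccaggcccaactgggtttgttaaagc
ARRDC3, chr5:91383318-91383567, minus strand: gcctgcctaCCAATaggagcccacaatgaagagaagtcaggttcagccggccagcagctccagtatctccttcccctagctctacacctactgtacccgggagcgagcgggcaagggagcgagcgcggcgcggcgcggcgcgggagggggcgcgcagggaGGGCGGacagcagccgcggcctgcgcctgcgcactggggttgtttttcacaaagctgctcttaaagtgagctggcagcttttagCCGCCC
ARRDC2, chr19:18000874-18001123, plus strand: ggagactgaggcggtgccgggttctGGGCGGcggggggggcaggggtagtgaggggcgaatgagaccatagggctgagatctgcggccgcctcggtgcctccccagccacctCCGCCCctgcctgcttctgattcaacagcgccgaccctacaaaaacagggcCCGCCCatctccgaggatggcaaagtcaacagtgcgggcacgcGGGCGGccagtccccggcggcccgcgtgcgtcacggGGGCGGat
ARRDC1, chr9:137605436-137605685, plus strand: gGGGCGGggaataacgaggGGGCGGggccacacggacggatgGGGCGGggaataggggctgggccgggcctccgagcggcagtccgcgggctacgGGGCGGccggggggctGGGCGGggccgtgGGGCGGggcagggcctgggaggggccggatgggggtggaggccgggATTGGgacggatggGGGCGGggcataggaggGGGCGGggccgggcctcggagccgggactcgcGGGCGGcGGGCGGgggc
The ARRDC4 window held 1 E-box, at -210 from the start, whereas the windows of ARRDC1, ARRDC2 and ARRDC3 held 0. An E-box was present in 6.34% of the 35116 RefSeq windows of that length. A pair of E-boxes 5 bases apart, written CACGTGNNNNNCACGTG, was in none of these windows and in 1 of the 35116. CCAAT boxes numbered 3 in the ARRDC4 window, 1 each in those of ARRDC1 and ARRDC3, and 0 in this ARRDC2 window, against at least 1 in 32% of all windows. ARRDC1 held 10 GC boxes, ARRDC2 held 5, ARRDC3 held 2 and ARRDC4 held 1, and 42.6% of all windows held at least 1. RefSeq gives a further start for ARRDC2 and another for ARRDC3, whose windows also had 0 E-boxes. The further ARRDC2 window held 1 CCAAT box and 2 GC boxes, so these counts depend on the start that is chosen. Only exact letters were searched, so a pair of E-boxes with other letters would have been missed. The absence of the exact pair therefore does not show that a promoter lacks such a pair. A match of letters is a description of the sequence and not a site of binding, and binding was not measured here.

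On GRCh38, GENCODE places ARRDC1 at chr9:137605685-137615360 on the plus strand and ARRDC2 at chr19:18001132-18014102 on the plus strand. ARRDC3 lies at chr5:91368631-91383317 on the minus strand, and ARRDC4 at chr15:97960703-97973833 on the plus strand. The paper names hg38 as the genome to which reads were mapped and the submitters' processing notes name GRCh37, so these coordinates are those of the annotation and not of the deposited counts. ARRDC1 shares 35 exonic bases with its antisense RNA ARRDC1-AS1 and 183 with a lncRNA on its own strand. ARRDC2 shares 442 exonic bases with an unnamed antisense transcript, and ARRDC3 shares 145 with ARRDC3-AS1. ARRDC1-AS1 was the only one of these partners whose identifier stood in the deposited table. The strand setting of the counting is not given in the sources used here, so reads of these shared bases cannot be assigned to either partner.

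Control U937 cells expressed ARRDC1 and ARRDC2 at similar levels per length, ARRDC3 at a far lower level, and no detectable ARRDC4. In the 3 control libraries ARRDC2 measured 12.58, 12.84 and 13.24 FPKM (12.9 ± 0.332, SD, n = 3). ARRDC1 measured 11.48, 12.7 and 11.49 FPKM in the same libraries (11.9 ± 0.701, SD, n = 3). These ranges overlapped across libraries. Within each control library ARRDC2 was above ARRDC1, by FPKM ratios of 1.10, 1.01 and 1.15, and this order was not tested. ARRDC3 measured 0.51, 0.57 and 0.66 FPKM (0.58 ± 0.0755, SD, n = 3), from 52, 54 and 56 counts. Every ARRDC3 value was thus below the lowest value of ARRDC1 or ARRDC2 by an order of magnitude. ARRDC4 had 0 counts in all 9 libraries, which allows up to 3 counts per library, or 0.137 to 0.173 CPM (counts scaled by the library total), and this limit covers counting error only. Per library, ARRDC1 had 760 to 1087 counts and ARRDC2 1063 to 1970 counts, so the counting error of ARRDC3 was the largest of the genes detected.

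**Figure D1:**
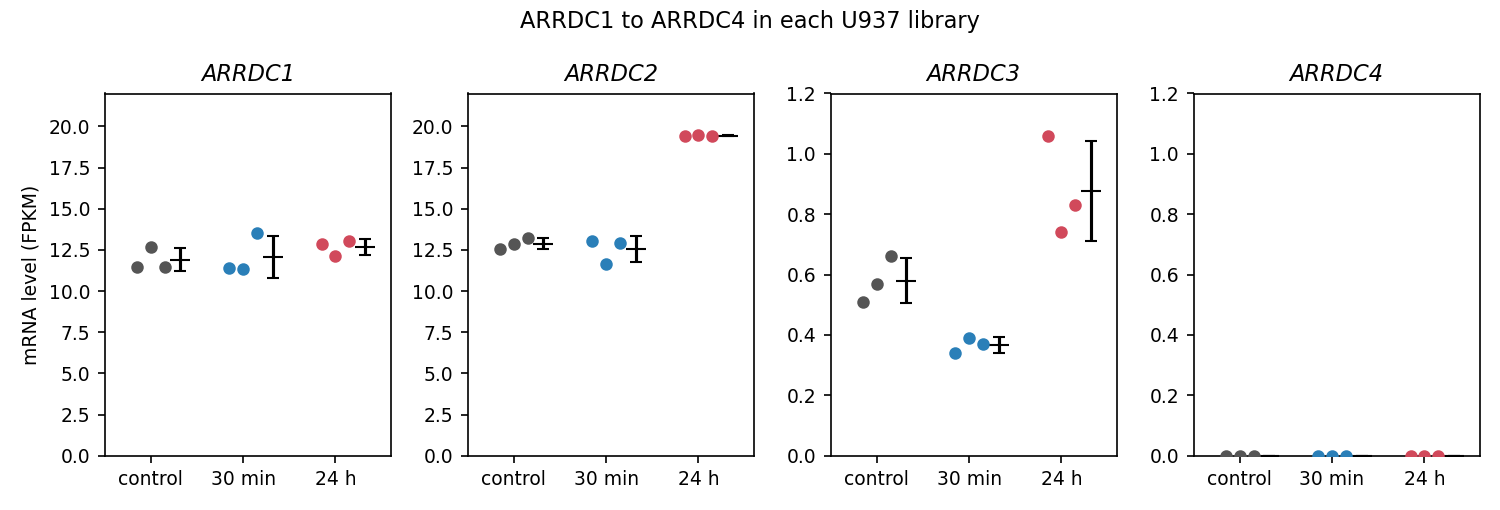
mRNA level in FPKM (y axis, from 0) of ARRDC1, ARRDC2, ARRDC3 and ARRDC4 in each of the 9 U937 libraries, with the group mean and SD (n = 3) beside the points. The first and second panels share a scale, and the other two share a smaller one. The ARRDC2 points at 24 h (19.4 to 19.47 FPKM) lie above all the others of that gene, the ARRDC3 points lie lowest after 30 min and highest at 24 h, and the ARRDC4 points are all at 0.

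The first comparison asked whether 30 min of matrine changed these mRNAs, the time at which the study looked for rapid responses. After 30 min ARRDC1 measured 11.37, 11.34 and 13.55 FPKM (12.1 ± 1.27, SD, n = 3). ARRDC2 measured 13.06, 11.65 and 12.93 FPKM (12.5 ± 0.779, SD, n = 3). Both sets of values overlapped those of the control. The log2 fold change was 0.036 (SE 0.080) for ARRDC1, with a fold change of 1.03 (95% interval 0.895 to 1.17) and an adjusted p of 0.928. For ARRDC2 it was -0.024 (SE 0.066), with a fold change of 0.983 (95% interval 0.880 to 1.10) and an adjusted p of 0.947. Neither gene was called, a call being a Benjamini-Hochberg adjusted p below 0.05 by edgeR's quasi-likelihood test together with a change of 1.5-fold or more. A change of 1.5-fold lies outside both intervals. Of all 11587 genes tested, 0.0949% were called higher and 0.544% lower at this time.

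ARRDC3 had its lowest values after 30 min, at 0.34, 0.39 and 0.37 FPKM (0.367 ± 0.0252, SD, n = 3), from 37, 40 and 37 counts. All 3 were below all 3 control values. Its mean of 0.473 FPKM over these 6 libraries is under the minimum of 1 FPKM that the study's thresholds ask for, so it was not tested with the other genes. In a fit without that minimum the log2 fold change was -0.62 (SE 0.23), a fold change of 0.652, with an adjusted p of 0.272 by edgeR's quasi-likelihood test, and the gene did not pass. The exact two-sided permutation test of 3 against 3 libraries gave p = 0.1, the smallest it can give. Among the 28848 genes of the fit without a minimum, 5.06% had 30 min values that were all below the control values.

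The second comparison asked what had changed after 24 h. ARRDC2 mRNA was higher than in the control, ARRDC1 mRNA was near its control level, and the low ARRDC3 mRNA had its highest values. ARRDC2 measured 19.4, 19.47 and 19.44 FPKM (19.4 ± 0.0351, SD, n = 3). The 3 values lay close together and above every control value. The log2 fold change was 0.54 (SE 0.065), a fold change of 1.45 (95% interval 1.30 to 1.62), with an adjusted p of 3.56e-07 by edgeR's quasi-likelihood test. ARRDC2 thus passed the adjusted p and stayed under the 1.5-fold of a call, which lies inside its interval. By adjusted p alone, 30.9% of the 12035 genes tested were higher and 32.5% were lower, and in 35.6% of them every 24 h value lay above every control value. With the 1.5-fold minimum, 14.8% were called higher and 11.5% lower. The exact permutation test for ARRDC2 gave p = 0.1, its smallest value.

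ARRDC1 measured 12.87, 12.1 and 13.02 FPKM at 24 h (12.7 ± 0.494, SD, n = 3), a range that overlapped the control. Its log2 fold change was 0.033 (SE 0.080), a fold change of 1.02 (95% interval 0.893 to 1.17), with an adjusted p of 0.738. The median log2 fold change over all tested genes was -0.0022 in this fit. With library totals in place of TMM the value for ARRDC1 was 0.094, and the median over all tested genes was 0.059. The antisense RNA ARRDC1-AS1, which overlaps it, measured 4.34, 3.93 and 4.67 FPKM in the control and 5.34, 5.87 and 6.26 FPKM at 24 h. Its values did not overlap, with a log2 fold change of 0.38 (SE 0.12) and an adjusted p of 0.00924, below the 1.5-fold of a call. Of all genes tested, 35.6% had 24 h values all above the control, and 30.9% were higher by adjusted p alone.

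ARRDC3 measured 1.06, 0.74 and 0.83 FPKM at 24 h (0.877 ± 0.165, SD, n = 3), from 107, 74 and 90 counts. Each value lay above each control value. Its mean over these 6 libraries, 0.728 FPKM, again kept it out of the test. In the fit without a minimum the log2 fold change was 0.50 (SE 0.20), a fold change of 1.41, with an adjusted p of 0.0487 by edgeR's quasi-likelihood test. This adjusted p is close to the threshold. Without the first 24 h library it was 0.266 (log2 fold change 0.37), and it became 0.0975 with DESeq2 and 0.11 with limma on log2(FPKM + 0.1). The background in that fit was 14.8% of genes higher by adjusted p alone, and 22% with 24 h values all above the control.

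The third comparison set 24 h against 30 min directly, and so tested whether the changes at the 2 times differed from each other. Among ARRDC1, ARRDC2 and ARRDC3, the last showed the largest difference, with a log2 fold change of 1.11 (SE 0.21) and a fold change of 2.16 in the fit without a minimum, at an adjusted p of 1.43e-06. Every 24 h value of ARRDC3 was above every 30 min value, as was the case for 21.9% of the genes in that fit. By adjusted p alone, 15.5% of all genes in that fit were higher. ARRDC2 was higher at 24 h than at 30 min by a log2 fold change of 0.56 (SE 0.064), a fold change of 1.47 (95% interval 1.32 to 1.64), with an adjusted p of 1.81e-07 by edgeR's quasi-likelihood test. The 1.5-fold of a call was again inside the interval. Among the 11981 genes tested, 33.3% were higher by adjusted p alone, 34.7% had no overlap in that direction, and with the fold minimum 15.7% were called higher and 11.3% lower. ARRDC1 had a log2 fold change of -0.0031 (SE 0.079), a fold change of 0.998 (95% interval 0.872 to 1.14), with an adjusted p of 0.974. Both ARRDC2 and ARRDC3 were thus higher at 24 h than at 30 min, although the comparisons at the 2 times share their control libraries and are not independent of each other.

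**Figure D2:**
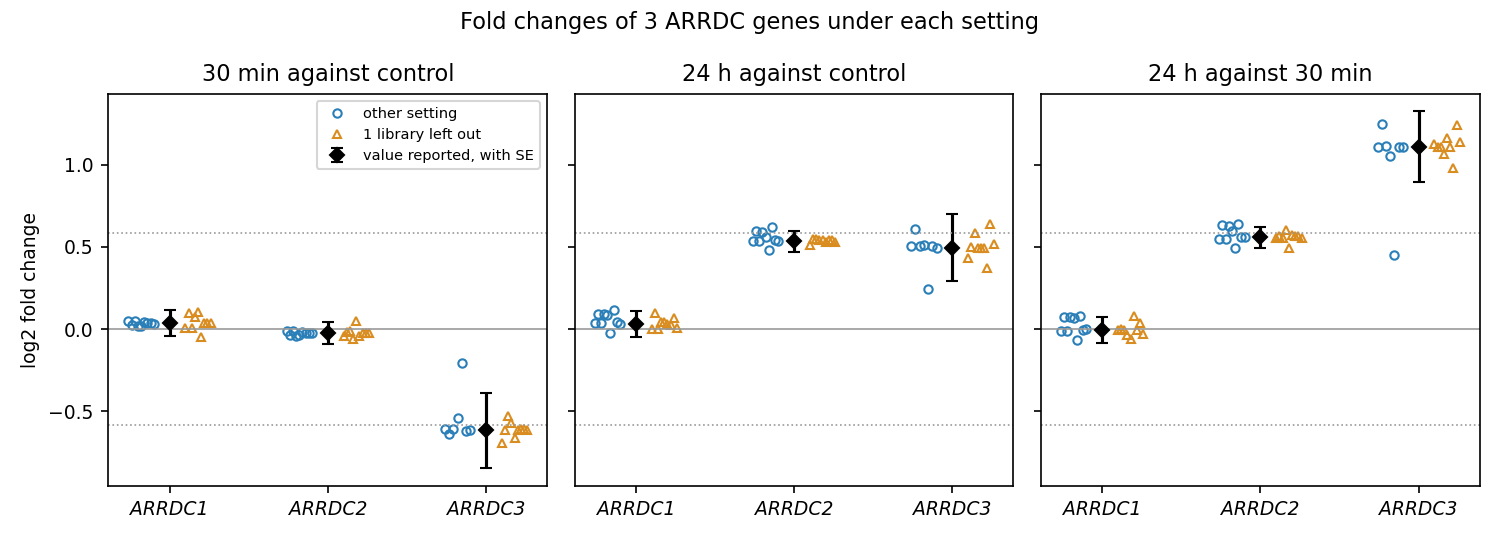
log2 fold change (y axis) of ARRDC1, ARRDC2 and ARRDC3 in each comparison, with the value reported and its SE as a black diamond, the values under other settings as circles and the values with 1 library left out as triangles. Dotted lines mark a fold change of 1.5 in either direction, and ARRDC3 comes from the fit without an FPKM minimum. ARRDC2 stays between 0.48 and 0.62 at 24 h against the control, whereas ARRDC1 lies around 0 and ARRDC3 goes from below 0 at 30 min to above 0 at 24 h.

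ARRDC1 and ARRDC2 can be compared within a library, where scaling between libraries plays no role. This ratio was added after the values had been seen. The FPKM of ARRDC2 divided by that of ARRDC1 was 1.10, 1.01 and 1.15 in the control (1.09 ± 0.0711, SD, n = 3). It was 1.15, 1.03 and 0.954 after 30 min (1.04 ± 0.0982, SD, n = 3), and 1.51, 1.61 and 1.49 after 24 h (1.54 ± 0.0633, SD, n = 3). The control and 30 min values overlapped, whereas every 24 h value was above both other groups. On the log2 scale the mean ratio of counts changed by -0.060 after 30 min (exact permutation p = 0.6) and by 0.50 after 24 h (exact permutation p = 0.1, the smallest possible). At 24 h the order of levels was therefore ARRDC2, ARRDC1, ARRDC3 and ARRDC4, with no overlap between neighbours. The ratio describes an unequal change of the 2 mRNAs in these libraries, and does not show that either of them was unchanged. It was drawn from values already seen, so it is not a separate test.

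**Figure D3:**
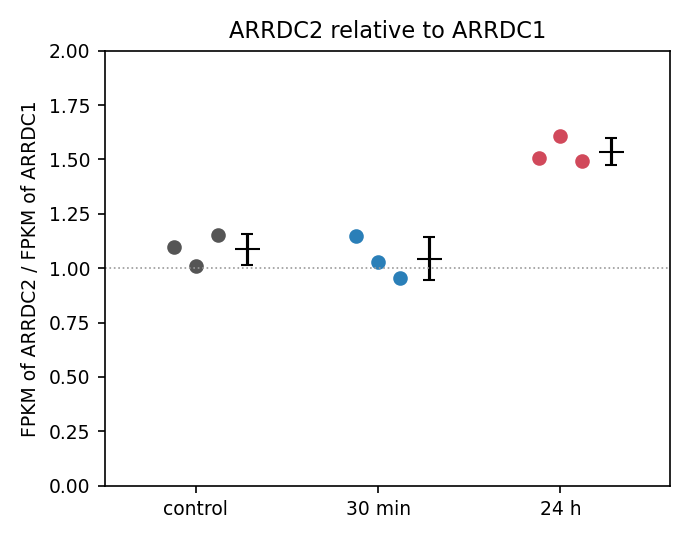
Ratio of the FPKM of ARRDC2 to that of ARRDC1 (y axis, from 0) in each library, with the group mean and SD (n = 3). The dotted line marks equal levels, and the 3 libraries at 24 h (1.49 to 1.61) lie above all 6 others (0.954 to 1.15).

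To place these profiles among other genes, each gene with a mean above 1 FPKM was centred on its control mean in log2 CPM, and its root mean square difference from ARRDC1 or ARRDC2 was taken over the 9 libraries, among 11898 genes. The profile most like that of ARRDC2 was that of SASH3, an adaptor protein of lymphoid and myeloid cells, at a difference of 0.0393. Next came KCTD5, a substrate adaptor of cullin ubiquitin ligases, at 0.0410, and COPG1, a subunit of the COPI vesicle coat, at 0.0463. Their log2 fold changes at 24 h were 0.52 for SASH3, 0.51 for KCTD5 and 0.53 for COPG1. The profiles most like that of ARRDC1 were those of the ubiquitin ligase TRIM41 at 0.0320, the DNA repair factor XRCC3 at 0.0336 and the transketolase TKT at 0.0365. All 3 had log2 fold changes at 24 h between 0.011 and 0.065. The points share their libraries and depth, so this likeness is only a description.

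The other arrestins showed no called change. Of the beta-arrestins, ARRB2 was the most abundant arrestin mRNA of those read, at 46.3 FPKM in the control and 45.8 FPKM at 24 h, and ARRB1 stood at 14.5 and 14.9 FPKM. Their log2 fold changes at 24 h were -0.074 (SE 0.056) and -0.014 (SE 0.072), with adjusted p of 0.253 and 0.873. ARRDC5, the remaining alpha-arrestin, had 0 to 2 counts per library. The visual arrestins SAG and ARR3 had means of at most 0.51 FPKM. ARRDC2 was the only arrestin gene among the 4 tested at 24 h with an adjusted p below 0.05. Over all genes tested, 30.9% were higher and 32.5% were lower by that measure, so passing it was common.

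The factors that act on TXNIP and ARRDC4 were present in part. MLXIP, which encodes MondoA, measured 5.71, 5.37 and 5.48 FPKM in the control and 7.06, 7.06 and 6.52 FPKM at 24 h. Its 24 h values lay above the control, with a log2 fold change of 0.26 (SE 0.070) and an adjusted p of 0.00289, and were below the 1.5-fold of a call. Among all genes tested, 35.6% had 24 h values all above the control, and 30.9% were higher by adjusted p alone. MLX had a log2 fold change of -0.075 (SE 0.068) with an adjusted p of 0.352. MLXIPL, which encodes ChREBP, was at 0 in the control and at a mean of 0.00333 FPKM at 24 h. MLXIP and MLX mRNA were thus detected in cells in which ARRDC4 had 0 counts.

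The thioredoxin system, to which TXNIP belongs as a binding partner, was mostly lower at 24 h by amounts below 1.5-fold. Of 11 thioredoxins, reductases and peroxiredoxins tested, 1 was called higher and 0 lower, and the median log2 fold change was -0.38. By adjusted p alone 8 were lower and 1 was higher. Over all genes tested at 24 h, the shares were 14.8% higher and 11.5% lower for calls, and 30.9% higher and 32.5% lower by adjusted p alone. TXN, cytosolic thioredoxin, measured 243, 245 and 236 FPKM in the control and 173, 181 and 186 FPKM at 24 h. Its log2 fold change was -0.49 (SE 0.056), with an adjusted p of 1.9e-07 by edgeR's quasi-likelihood test. The called gene was PRDX5, a peroxiredoxin of mitochondria and peroxisomes, at 121 FPKM in the control and 225 FPKM at 24 h, which rose by 0.84 on the log2 scale (SE 0.071, adjusted p 2.2e-09). Against 30 min rather than the control, 2 further members, PRDX1 (log2 fold change -0.67) and PRDX4 (-0.69), were called lower.

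Of the glucose transporters and hexokinases, 5 of 6 were tested, and 2 were called higher and 1 lower at 24 h (all genes: 14.8% and 11.5%), with a median log2 fold change of -0.37. SLC2A1, the widely expressed transporter GLUT1, measured 26.6, 28.3 and 28.4 FPKM in the control and 17.1, 16.9 and 17.4 FPKM at 24 h. It fell by 0.75 on the log2 scale (SE 0.061, adjusted p 1.08e-09). SLC2A3, the transporter GLUT3, measured 4.84, 4.27 and 5.15 FPKM in the control and 9.36, 9.55 and 9.77 FPKM at 24 h. It rose by 0.95 (SE 0.083, adjusted p 2.97e-09), so these transporters went in opposite directions. The hexokinase HK3 rose by 0.82 (SE 0.096), and HK1 (-0.37) and HK2 (-0.39) passed the adjusted p without reaching 1.5-fold.

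Of the partners of alpha-arrestins in ubiquitination and vesicle budding, 1 gene was called at 24 h. Among the NEDD4-family ligases and their NDFIP adaptors, 8 of 11 were tested at 24 h and 1 was called, the adaptor NDFIP2, which rose by 0.77 on the log2 scale (SE 0.17, adjusted p 0.000458) from 0.773 to 1.38 FPKM. Over all genes 14.8% were called higher. By adjusted p alone 4 of the 8 were higher and 1 was lower, against 30.9% and 32.5% of all genes. Besides NDFIP2, the log2 fold changes were 0.47 for NDFIP1 (adjusted p 1.55e-05 by edgeR's quasi-likelihood test), 0.38 for SMURF2, 0.33 for WWP2 and -0.27 for SMURF1. NDFIP2 reached the minimum for testing only through the 24 h group, and its log2 fold change was 0.42, under 1.5-fold, with limma on log2(FPKM + 1). ITCH, at 10.9 FPKM in the control, had a log2 fold change of -0.017 and an adjusted p of 0.86. All 9 ESCRT genes were tested and 0 were called by edgeR. By adjusted p alone 3 of these were higher, among them TSG101 (0.38, adjusted p 0.00228), the partner of ARRDC1, and 2 were lower, against 30.9% and 32.5% of all genes.

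Of the 5 genes of the NLRP3 inflammasome, to which TXNIP is linked, 1 was called higher at 24 h, IL18, and 0 lower (all genes: 14.8% and 11.5%). By adjusted p alone 2 were higher and 0 lower, against 30.9% and 32.5% of all genes. The other gene was CASP1, with a log2 fold change of 0.29 (adjusted p 0.0084 by edgeR's quasi-likelihood test). IL18, an inflammasome-processed cytokine, went from 5.08 to 11.6 FPKM, a rise of 1.13 on the log2 scale (SE 0.096, adjusted p 2.46e-09). IL1B was the only gene of all these lists that was called at 30 min (all genes: 0.0949% higher and 0.544% lower). It measured 2.75, 2.57 and 3.0 FPKM in the control and 0.72, 0.66 and 0.71 FPKM after 30 min. It reached the minimum for testing only through the control group. It fell by 1.97 on the log2 scale (SE 0.16, adjusted p 6.06e-08) and at 24 h, at 2.17, 2.93 and 2.71 FPKM, overlapped the control again. NLRP3, the sensor of the complex, measured 15.86, 15.64 and 18.17 FPKM in the control, 12.09, 12.3 and 12.07 FPKM after 30 min and 15.6, 14.76 and 16.1 FPKM after 24 h. Its 30 min values lay below all the others, with a log2 fold change of -0.43 (SE 0.069, adjusted p 0.00072) against the control that was under the 1.5-fold of a call. By adjusted p alone 153 of the 11587 genes tested were lower at 30 min. In the fit without a minimum, 5.06% of genes had 30 min values all below the control.

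ARRDC2, ARRDC3 and TXNIP are often counted among the genes that glucocorticoid receptor or FOXO factors induce, and 10 of 12 other genes used as marks of these factors were tested. At 24 h 2 were called higher and 1 lower (all genes: 14.8% and 11.5%), with a median log2 fold change of 0.21. DDIT4, an inhibitor of mTORC1, measured 8.34, 10.39 and 9.04 FPKM in the control, 6.07, 6.29 and 6.55 FPKM after 30 min and 121.7, 135.33 and 130.86 FPKM after 24 h. Its values at 24 h were far above all the others, with a rise of 3.75 on the log2 scale (SE 0.080, adjusted p 5.6e-19), a fold change of 13.4. TSC22D3, the leucine zipper protein GILZ, rose by 3.23 (SE 0.11, adjusted p 8.01e-16) from 1.28 to 12.5 FPKM. FKBP5 had a log2 fold change of -0.14 (adjusted p 0.0314), PER1 one of -0.54 (adjusted p 0.000331), and KLF15 fell by 1.37 (SE 0.18, adjusted p 1.23e-06). KLF15, at 0.78 FPKM at 24 h and 1.94 FPKM in the control, reached the minimum for testing only through the control group. By adjusted p alone 5 members were higher and 4 lower, against 30.9% and 32.5% of all genes.

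**Figure D4:**
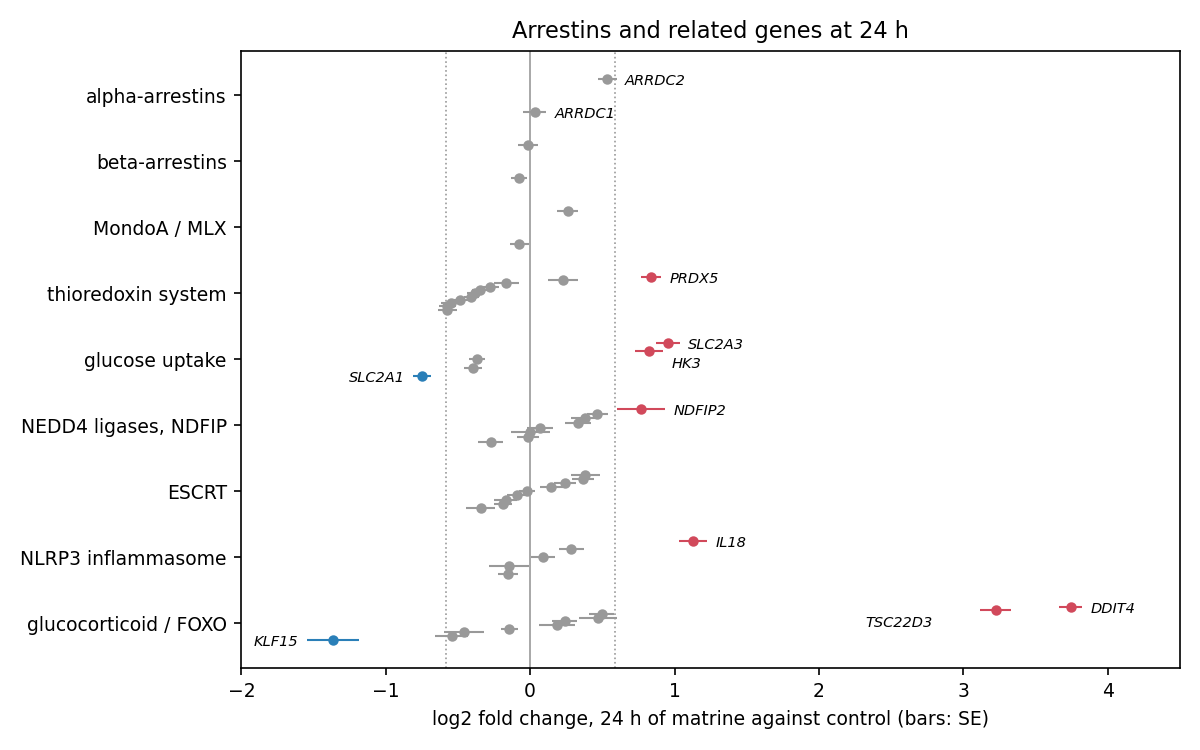
log2 fold change at 24 h of matrine against control (x axis, with SE as bars) for each tested arrestin gene and each tested gene of the related lists (y axis). Red points were called higher, blue points were called lower and grey points were not called, and dotted lines mark 1.5-fold in either direction. DDIT4 (3.75) and TSC22D3 (3.23) lie far to the right, and ARRDC2 (0.54) lies just inside the dotted line.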

How the data were processed

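Poly(A) selection and rRNA removal are both named in the paper, and the labels name an mRNA kit. The authors trimmed reads with cutadapt 1.9.1, mapped them with HISAT2 2.0.1 and counted them per gene with HTSeq 0.6.1, as the submitters' processing notes give it. The deposited table holds raw counts and FPKM values by the authors for each library. The paper names hg38 and the notes GRCh37. Annotation release, strand setting and treatment of multiply mapped reads are not given in the sources used here.

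Counts were normalized by TMM and tested with edgeR 4.0.16 (R 4.3.3) by glmQLFit and glmQLFTest in 1 fit of all 9 libraries, without a replicate block. A mean above 1 FPKM across the 6 libraries compared was required. A call needed a Benjamini-Hochberg adjusted p below 0.05 over all genes tested, with a change of 1.5-fold or more. The fit without that minimum, from which ARRDC3 was read, was added after the data had been seen. A separate fit per comparison was tried first and replaced by the single fit after its results had been seen, which changed no call of an ARRDC gene. Each SE is the log2 fold change divided by the square root of F, and 95% intervals use 6 residual degrees of freedom. FPKM means are given with SD over 3 libraries, with exact permutation tests of 3 against 3. The procedure was tested on simulated data with 200 changed genes. Alternatives used DESeq2 1.42.0, its size factors, library totals, limma 3.58.1 on log2(FPKM + 0.1) and log2(FPKM + 1), other FPKM minimums and fold changes, a replicate block, 6 libraries only and each library left out.

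The genes and lists were chosen with earlier results of these data known. Named genes were the alpha-arrestins, list members, the 3 genes most like ARRDC1 and ARRDC2, overlapping genes and MYC. TXNIP, HL-60 and K562 were not analysed here. A list of membrane proteins sorted by alpha-arrestins is not reported here.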

Additional observations from a re-analysis of the deposited data

Results flagged for a closer look

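A direct test of 24 h against 30 min found that the changes at the 2 times differed (edgeR's quasi-likelihood test, adjusted p below 0.05, fold change of at least 1.5 for the related genes). Since both times share the control libraries, this is also the test of the difference between their changes against the control. Among the alpha-arrestins, ARRDC2 was higher at 24 h by a log2 fold change of 0.56, and ARRDC3, in the fit without an FPKM minimum, by 1.11. ARRDC3 lay below the control in all 3 libraries at 30 min, as did 5.06% of genes in that fit, with an adjusted p of 0.272. It lay above the control in all 3 at 24 h, as did 22% of genes, with an adjusted p of 0.0487 that was lost with DESeq2 and limma.

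Over all genes tested, 15.7% were called higher and 11.3% lower at 24 h than at 30 min. Of 11 genes tested in the thioredoxin system, 1 was called higher and 2 lower. The log2 fold change between the times was -0.67 for PRDX1, -0.69 for PRDX4 and 0.75 for PRDX5. Of 5 glucose transporters and hexokinases tested, 2 were called higher and 1 lower, with -0.75 for SLC2A1, 1.11 for SLC2A3 and 0.86 for HK3. Of 8 NEDD4-family ligases and NDFIP adaptors tested, 1 was called higher, NDFIP2, by 0.99. Of 5 inflammasome genes tested, 2 were called higher, IL1B by 1.82 and IL18 by 1.01. Of 10 genes tested as marks of glucocorticoid receptor or FOXO activity, 5 were called higher and 2 lower. Against the control, 2 were called higher and 1 lower at 24 h. At 30 min 0 were called against the control, and 3 were lower by adjusted p alone, as were 153 of all 11587 genes tested. These were KLF9 (log2 fold change against the control -0.52), DDIT4 (-0.54) and CDKN1B (-0.51). At 24 h KLF9 stood at 0.19 against the control (adjusted p 0.196 by edgeR's quasi-likelihood test). Of the genes used as marks of glucocorticoid receptor or FOXO activity, the differences were 3.52 for TSC22D3, 4.29 for DDIT4, 1.00 for CDKN1B, 0.71 for KLF9, 0.68 for SESN1 (0.56 and no longer a call without 24 h replicate 1), -0.72 for PER1 and -0.93 for KLF15. With limma on log2(FPKM + 1), the values of NDFIP2 (0.52), KLF9 (0.47), SESN1 (0.46), PER1 (-0.45) and KLF15 (-0.45) were under 1.5-fold and no longer calls. NDFIP2, IL1B and KLF15 reached the FPKM minimum only through the group in which they were higher. All values not given against the control are 24 h minus 30 min on the log2 scale.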

How the results depend on the processing

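No alternative called an ARRDC gene at 30 min. At 24 h against the control, the number of ARRDC genes called was 0, and it was 1 (ARRDC2) with no fold threshold, library totals alone, limma on log2(FPKM + 0.1) and a mean FPKM above 5, and 0 in each fit with a library left out. At 24 h against 30 min it was 0, and 1 with those settings and limma on log2(FPKM + 1) (ARRDC2) or no filter (ARRDC3), with a range of 0 to 1 over the fits with a library left out, since ARRDC2 passed 1.5-fold without replicate 1 of the 30 min group (log2 fold change 0.60). The log2 fold change of ARRDC2 at 24 h ranged from 0.48 to 0.62 (adjusted p from 7.29e-14 to 1.03e-05) over the alternatives.

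The ARRDC3 change at 24 h against the control, from the fit without a minimum, lost significance with DESeq2 (log2 fold change 0.50, adjusted p 0.0975), limma on log2(FPKM + 0.1) (0.51, adjusted p 0.11) and limma on log2(FPKM + 1) (0.25, adjusted p 0.0604), and with library totals alone it was 0.61 (adjusted p 0.0112), past 1.5-fold. With a library left out it ranged from 0.37 to 0.64 and lost significance without control replicate 1 or 2 or 24 h replicate 1 or 3. The cause was not tested. ARRDC1, which passed no test, changed sign: at 24 h against the control to -0.024 with no filter, and at 24 h against 30 min to 0.071 with library totals alone, 0.071 with limma on log2(FPKM + 0.1), 0.066 with limma on log2(FPKM + 1) and 0.078 with a mean FPKM above 5. With a library left out, ARRDC1 ranged from -0.062 to 0.078 at 24 h against 30 min and from -0.048 to 0.10 at 30 min, and ARRDC2 at 30 min from -0.058 to 0.051. The log2 difference of the ARRDC2 to ARRDC1 ratio ranged from 0.45 to 0.55 at 24 h, from 0.50 to 0.63 at 24 h against 30 min and from -0.13 to 0.0020 at 30 min.

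Replicate numbers showed no sign of pairing. Deviations of same-numbered libraries correlated between -0.16 and 0.10 (9 pairs) and those of other numbers between -0.15 and 0.19 (18 pairs). With 3 libraries per group this cannot exclude that same-numbered libraries were handled together. With the replicate block, ARRDC2 at 24 h had a log2 fold change of 0.54 (adjusted p 1.23e-06) and ARRDC3 one of 0.49 (adjusted p 0.0375), and no ARRDC call changed.

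Over all genes, called lower and higher were 63 and 11 at 30 min, 1387 and 1785 at 24 h, and 1355 and 1887 at 24 h against 30 min. A fold change of at least 2 gave 23 and 1, 372 and 758, and 339 and 795. No fold threshold gave 153 and 34, 3912 and 3717, and 3843 and 3988. No filter gave 95 and 28 at 30 min, and a mean FPKM above 5 gave 40 and 7, 749 and 913, and 745 and 945. Limma on log2(FPKM + 1) gave 6 higher at 30 min, 895 lower at 24 h and 820 lower at 24 h against 30 min, and leaving out 30 min replicate 2 gave 18 higher at 30 min. Of the genes called at 24 h against 30 min, 41.8% were lower, and 32.2% with library totals alone. Depth limits ARRDC3, which had 37 to 107 counts per library, and ARRDC4, for which expression below the limit of 3 counts was not detectable.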
